A study of Homo sapiens with 4 samples.

Results

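GAS5, SNHG1, SNHG3 and SNHG12 are genes of long noncoding RNAs whose introns carry small nucleolar RNAs (snoRNAs). The peaks described here are those that overlapped 1 of 4 windows of hg19 set around these genes, chr1:173820000-173850000 for GAS5, chr11:62605000-62635000 for SNHG1, chr1:28820000-28850000 for SNHG3 and chr1:28895000-28920000 for SNHG12. They numbered 46 of the 57601 peaks in the 4 deposited lists. Of these, 24 were Fra-1 peaks over input and 22 were DDX5 peaks over input, and the windows held 0 peaks of either antibody over IgG. The study profiled BT549, an established human breast cancer line without oestrogen receptor alpha, grown with no treatment. It comprised 1 Fra-1 library (antibody R-20, sc-605), 1 DDX5 library (antibody ab21696), 1 library precipitated with normal rabbit IgG (sc-2027) and 1 library of input DNA, and the authors listed the peaks of each antibody against each of both controls. All 4 libraries came from untreated BT549 cells, and each antibody has 1 library, so there is no spread between replicates and no test of a difference. The lists give for each peak the pileup, which is the depth of ChIP fragments at its summit, the fold enrichment over the control, and a −log10 q. The values are the authors' own, the sequencing depth behind them is unknown, and the control level at a peak was worked out from its pileup and fold. That level is taken as the one behind the authors' fold, which may be averaged over more than the summit.

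snoRNAs guide the chemical modification of ribosomal RNA. Those of the C/D class direct methylation of the ribose and those of the H/ACA class direct pseudouridylation, and a few, such as U17 (SNORA73), take part in cleaving the ribosomal RNA precursor. Most human snoRNAs are cut out of introns of host genes, and the spliced host RNA is often short-lived because it is degraded when ribosomes translate it. Host genes of this kind are transcribed strongly in growing cells, and many start their transcript with a run of pyrimidines, as the genes of ribosomal proteins do. Fra-1, encoded by FOSL1, is a subunit of the transcription factor AP-1 and binds DNA with a partner of the Jun family. DDX5, also named p68, is an RNA helicase that acts in transcription, splicing and ribosomal RNA processing and reaches chromatin through proteins or RNA.

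In the RefSeq annotation of GRCh38.p14, GAS5 holds 11 named snoRNA genes, which are SNORD44, SNORD47, the run SNORD74 to SNORD81 and the H/ACA gene SNORA103. SNHG1 holds 8, namely SNORD22 and SNORD25 to SNORD31. SNHG12 holds 4, the C/D gene SNORD99 and the H/ACA genes SNORA16A, SNORA44 and SNORA61. SNHG3 holds 2, SNORA73A and SNORA73B, both copies of U17. The gene order in that annotation puts GAS5-AS1, ZBTB37 and SERPINC1 (antithrombin) beside GAS5. Beside SNHG1 it puts WDR74 (a ribosome assembly factor), RNU2-2 (a U2 spliceosomal RNA) and SLC3A2 (the heavy chain of CD98). RCC1, the nucleotide exchange factor of Ran, overlaps SNHG3, and TRNAU1AP, a partner of the selenocysteine tRNA, comes next before SNHG12. That annotation is of a later build than the peaks. For this reason no peak was placed on an exon, an intron or a start site, and peaks are given by position in hg19.

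The stretches around the annotated starts of the 4 host genes are shown because they span the annotated starts of the genes that define the windows. Each runs from 250 bases before to 50 bases after the start, 5′ to 3′ on the gene's strand, as RefSeq gives it for GRCh38.p14, and capitals mark CpG dinucleotides. GAS5 is chr1:173868996-173869295 (minus strand), SNHG1 is chr11:62855836-62856135 (minus strand), SNHG3 is chr1:28505693-28505992 (plus strand) and SNHG12 is chr1:28581824-28582123 (minus strand), all in that build.
GAS5: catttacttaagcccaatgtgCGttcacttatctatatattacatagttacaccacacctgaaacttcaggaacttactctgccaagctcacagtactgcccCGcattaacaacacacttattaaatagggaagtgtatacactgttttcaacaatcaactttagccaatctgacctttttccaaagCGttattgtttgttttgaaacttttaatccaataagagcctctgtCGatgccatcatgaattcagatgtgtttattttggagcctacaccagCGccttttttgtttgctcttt
SNHG1: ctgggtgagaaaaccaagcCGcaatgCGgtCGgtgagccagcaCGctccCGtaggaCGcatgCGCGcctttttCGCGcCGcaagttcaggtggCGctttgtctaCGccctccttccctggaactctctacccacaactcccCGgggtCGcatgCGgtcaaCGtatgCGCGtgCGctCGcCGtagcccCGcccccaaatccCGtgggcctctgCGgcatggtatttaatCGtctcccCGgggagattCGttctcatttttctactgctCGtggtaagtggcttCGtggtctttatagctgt
SNHG3: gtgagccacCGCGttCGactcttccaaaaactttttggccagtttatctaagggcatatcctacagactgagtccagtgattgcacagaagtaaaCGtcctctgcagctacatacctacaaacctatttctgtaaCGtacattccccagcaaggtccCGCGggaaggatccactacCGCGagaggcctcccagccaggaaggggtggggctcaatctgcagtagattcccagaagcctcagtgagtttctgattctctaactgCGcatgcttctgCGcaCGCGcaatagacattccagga
SNHG12: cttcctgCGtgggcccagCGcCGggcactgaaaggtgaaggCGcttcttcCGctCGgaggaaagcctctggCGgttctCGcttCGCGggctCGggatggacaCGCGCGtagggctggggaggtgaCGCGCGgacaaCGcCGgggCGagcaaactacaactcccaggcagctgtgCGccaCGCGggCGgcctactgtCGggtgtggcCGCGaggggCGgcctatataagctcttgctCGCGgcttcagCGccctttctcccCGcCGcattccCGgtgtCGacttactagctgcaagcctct

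The stretches differ in CpG content. SNHG12 holds 35 CpG and SNHG1 holds 30, against a median of 14 over the 35116 stretches of the same length in the table. SNHG3, with 13, is near that median, and GAS5 holds 5. Counted from the annotated start, the transcript of SNHG12 begins with 11 pyrimidines in a row, that of SNHG1 with 3, and those of GAS5 and SNHG3 with 0. SNHG12 also has TATATAA starting 30 bases before its start, a word found on either strand in 2.57% of all stretches. The AP-1 element was searched as TGANTCA and the cAMP response element as TGACGTCA, which both read the same on either strand. Neither occurs in any of the 4 stretches, against 7.71% and 1.85% of all stretches. The table gives 1 start for each host gene, which need not be the start used in BT549, and a word that is absent says only that its letters are not in this stretch. No coordinate of these stretches was joined to the peaks.

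Every window held peaks of both antibodies over input. Fra-1 had 11 peaks in the SNHG3 window, 5 in that of SNHG12, 5 in that of SNHG1 and 3 in that of GAS5. DDX5 had 7, 6, 5 and 4 in the same order. As a background, chromosomes 1 to 22 and X were cut, up to the last listed peak of each, into tiles of 30 kb, the length of 3 of the windows. A Fra-1 peak over input lay in 18.3% of the tiles and a DDX5 peak over input in 6.78%. At least 3 Fra-1 peaks, the lowest number in any window, lay in 2.77% of the tiles, and at least 4 DDX5 peaks, the lowest number here, in 0.45%. Over IgG, a Fra-1 peak lay in 10.7% of the tiles and a DDX5 peak in 0.0505%. The windows were chosen with results of these data known, so these shares describe the lists and support nothing about the windows.

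**Figure D1:**
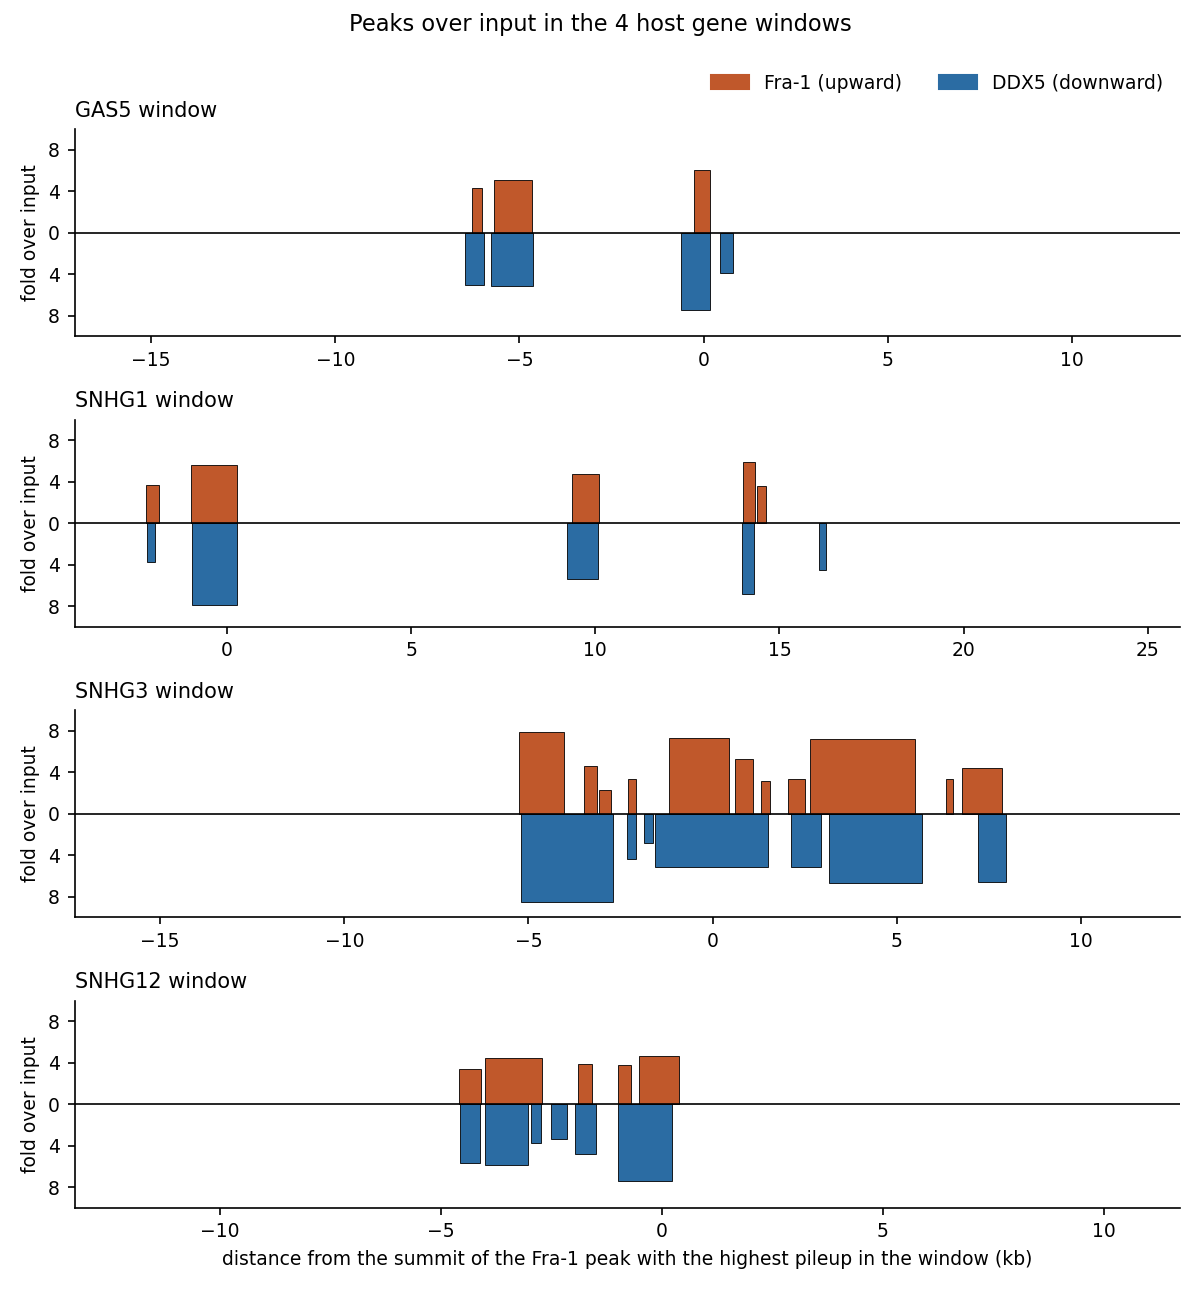
Peaks over input in the GAS5, SNHG1, SNHG3 and SNHG12 windows, by distance in kb from the summit of the Fra-1 peak with the highest pileup (at SNHG3, where 2 peaks share it, the one further along). Each bar spans a peak and its height is the fold over input, upward for Fra-1 and downward for DDX5; peaks are most numerous at SNHG3, with 11 for Fra-1 and 7 for DDX5, and most bars face a bar of the other antibody.

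SNHG3, the host of the U17 snoRNAs, had the widest coverage. Its Fra-1 peaks covered 9040 bp, or 30.1% of the window, and its DDX5 peaks 10129 bp, or 33.8%. All lay within 13.2 kb, from 28832075 to 28845272 on chromosome 1. The flank before that stretch in the window, which held 0 peaks, begins at 28820000.

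The peak at the low end of this stretch had the highest fold of any window for both antibodies. For Fra-1 it lay at chr1:28832075-28833275, with a pileup of 56 at an input level of 6.2, a 7.92-fold enrichment and a −log10 q of 30.8. For DDX5 it lay at chr1:28832121-28834610, with a pileup of 56 at an input level of 5.66, 8.55-fold and a −log10 q of 31.3. The 2 summits were 7 bp apart. This DDX5 peak was the only 1 of the 22 to reach 8-fold, against 247 of 10836 in the whole list. It ran on over 2 more Fra-1 peaks, of 4.61-fold at 28833824 and of 2.29-fold at 28834243. The last of these was the weakest member, with a −log10 q of 1.51.

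Further along, the SNHG3 peaks were broad. Fra-1 peaks of 7.33-fold (chr1:28836143-28837761, pileup 56, input level 6.78) and 7.23-fold (chr1:28839973-28842815, pileup 46, input level 5.5) were 1619 bp and 2843 bp wide. The wider of them was number 8 of 30571 by width. DDX5 peaks of 5.11-fold (chr1:28835754-28838822, pileup 48, input level 8.58) and 6.71-fold (chr1:28840467-28843006, pileup 69, input level 9.44) were 3069 bp and 2540 bp wide, numbers 15 and 24 of 10836. At these 2 broad sites the antibodies shared the ground but not the summit, which lay 744 bp apart in the first pair and 1433 bp apart in the second.

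Smaller peaks filled the spaces between them. Fra-1 had 5.28-fold at 28837924, 3.2-fold at 28838626 and 3.4-fold at 28839362, and DDX5 had 5.16-fold at 28839459. A narrow pair at 28835031 (Fra-1, 3.36-fold, pileup 31) and 28835004 (DDX5, 4.33-fold, pileup 36) had summits 3 bp apart, the closest in the 4 windows. Each antibody also had a peak that the other lacked, a Fra-1 peak of 3.34-fold at 28843641 and a DDX5 peak of 2.87-fold at 28835455, the lowest DDX5 fold of the 22. At the high end, Fra-1 (4.41-fold, pileup 29) and DDX5 (6.57-fold, pileup 36) overlapped again, between 28844096 and 28845272.

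SNHG12, a host of 4 snoRNAs with a window of 25 kb, had its peaks packed into 4.98 kb, from 28903703 to 28908678 on chromosome 1. The peak with the highest pileup was at the high end for both antibodies. DDX5 had a pileup of 76 at an input level of 9.44 (chr1:28907292-28908517, 7.38-fold, −log10 q 37.3), and Fra-1 a pileup of 49 at an input level of 9.68 (chr1:28907769-28908678, 4.68-fold, −log10 q 16.3), with summits 48 bp apart. The DDX5 peak also covered a Fra-1 peak of 3.75-fold at 28907283.

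At the low end of the SNHG12 stretch lay another group. Fra-1 had 3.43-fold at 28903703 and a peak 1304 bp wide of 4.48-fold at 28904275. DDX5 had 5.7-fold at 28903718, 5.85-fold at 28904277 and 3.72-fold at 28905332. Between the groups a pair with summits 16 bp apart had 3.84-fold (Fra-1, at 28906389) and 4.82-fold (DDX5, at 28906320), and DDX5 alone had a peak of 3.35-fold at 28905784.

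The SNHG3 and SNHG12 windows are 45 kb apart on the same chromosome and are not independent places. The gap between them held 1 Fra-1 peak (3.47-fold, at 28879341) and 2 DDX5 peaks (3.78-fold at 28868786 and 3.27-fold at 28879498), so the folds there were below the medians of the window peaks. The stretches of dense peaks were thus separated by ground with few.

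GAS5, named for RNA that accumulates at growth arrest, had its peaks in 2 groups within 7.26 kb. The group at the high end had the strongest peak of the window for both antibodies. Fra-1 had a pileup of 40 at an input level of 5.81 (chr1:173836825-173837246, 6.02-fold, −log10 q 17.6), and DDX5 a pileup of 41 at an input level of 4.63 (chr1:173836447-173837250, 7.46-fold, −log10 q 20.6). The Fra-1 peak lay wholly inside the DDX5 peak, with the summits 55 bp apart. A DDX5 peak of 3.9-fold at 173837506 had no Fra-1 partner.

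The group at the low end of the GAS5 window held a pair on either side of a short gap. Its wider members, of 1024 bp for Fra-1 and 1143 bp for DDX5, had 5.14-fold (pileup 34, at 173831388) and 5.09-fold (pileup 39, at 173831297). Its narrower members had 4.37-fold (Fra-1, pileup 22, at 173830799) and 5.05-fold (DDX5, pileup 24, at 173830608). In this window all 1712 bp of Fra-1 peak lay inside DDX5 peaks, which covered 2813 bp.

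SNHG1, the host of SNORD22 and SNORD25 to SNORD31, had the most widely spread peaks, with those of DDX5 running over 18.4 kb and those of Fra-1 over 16.8 kb. By far the highest pileup of the 46 was here, at a site near the low end of the window. Fra-1 had a pileup of 174 over 1275 bp (chr11:62608145-62609419, 5.64-fold, −log10 q 68.7). DDX5 had a pileup of 182 over 1217 bp at an input level of 22.3 (chr11:62608195-62609411, 7.85-fold, −log10 q 93.1). The summits were 9 bp apart.

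This site stood out in the input as well as in the ChIP. Its input level ranked at the 99.7th percentile of the Fra-1 list and at the 98.9th of the DDX5 list, and its pileup was number 420 of 30571 and number 53 of 10836. Its fold, in contrast, was near the middle of the Fra-1 list (53.1st percentile), and high in the DDX5 list (97.5th). RNU2-2 and WDR74 are the neighbours of SNHG1 on its lower side in GRCh38.p14, and whether the site lies on either was not tested.

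The remaining SNHG1 peaks had pileups between 19 and 34. A pair at 62623137 (Fra-1, 5.87-fold, pileup 31) and 62623120 (DDX5, 6.87-fold, pileup 33) had summits 5 bp apart, and a pair at 62618500 (Fra-1, 4.72-fold) and 62618358 (DDX5, 5.41-fold) had summits 180 bp apart. Near the first pair each antibody had a peak of its own, a Fra-1 peak of 3.6-fold at 62623518 and a DDX5 peak of 4.51-fold at 62625195. A weak pair lay at 62606932 (Fra-1, 3.73-fold) and 62606969 (DDX5, 3.78-fold).

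Among all peaks over input, the host gene peaks ranked differently in the lists of the 2 antibodies. The 24 Fra-1 peaks had a median of 4.45-fold (range 2.29 to 7.92), against 5.37-fold in the whole Fra-1 list, and 6 of the 24 were above that list's median. The 22 DDX5 peaks had a median of 5.14-fold (range 2.87 to 8.55), against 4.16-fold in the whole DDX5 list, and 17 of the 22 were above that list's median. As ranks within the list, the median member stood at the 34.4th percentile of Fra-1 fold and at the 79.6th of DDX5 fold. The same order held in each window. The median percentile for Fra-1 was 47.0 at GAS5, 39.5 at SNHG1, 33.3 at SNHG3 and 21.0 at SNHG12, and for DDX5 it was 78.6, 84.7, 79.9 and 80.5. The lists differ in length and come from different libraries, so a rank in either describes that list, and the difference between the ranks was not tested.

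**Figure D2:**
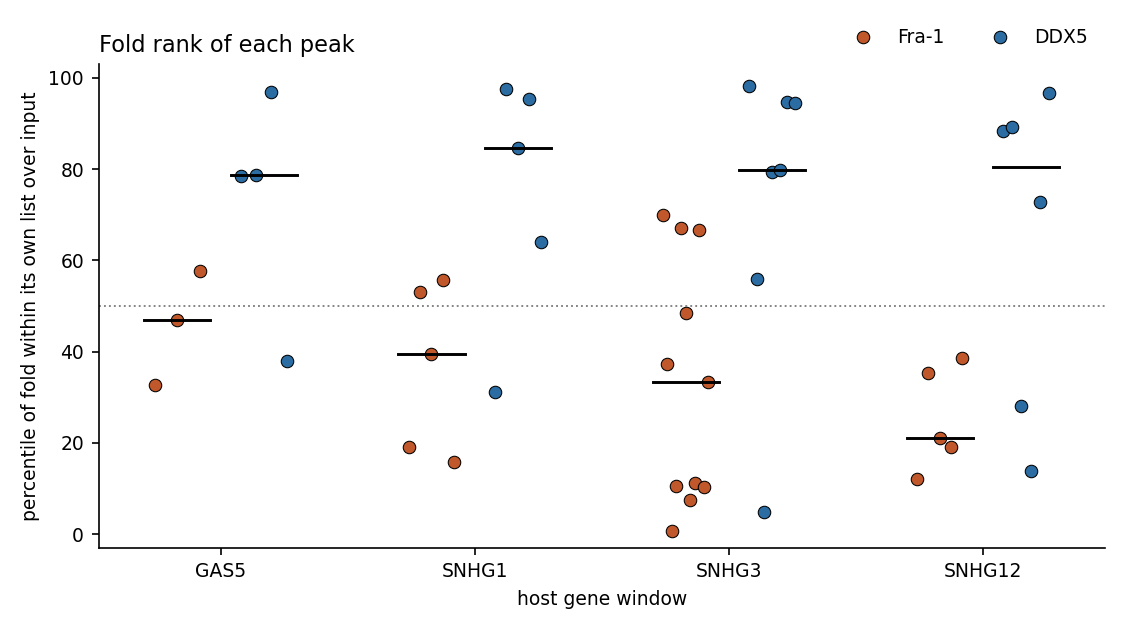
Percentile of each host gene peak by fold within its own list over input (y axis), by window (x axis), for Fra-1 (left of each pair) and DDX5 (right), with bars at the medians and a dotted line at 50. The DDX5 medians lie between 78.6 and 84.7 and the Fra-1 medians between 21.0 and 47.0.

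The host gene peaks were also wide. Their median width was 440.5 bp for Fra-1, against 317 bp in the whole list, and 620 bp for DDX5, against 285 bp. Of the 24 Fra-1 peaks 7 were wider than 1000 bp, or 29.2%, against 1.81% of the list, and of the 22 DDX5 peaks 6 were, or 27.3%, against 2.47%. SNHG3 supplied 4 of the 7 and 3 of the 6, and each other window supplied 1 of each. The input level at the peaks was above the list's median for 22 of 24 Fra-1 peaks (median 6.07, against 4.45 in the list) and for 20 of 22 DDX5 peaks (median 5.08, against 3.83). The part of the input level in the widths and in the pileups was not tested.

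**Figure D3:**
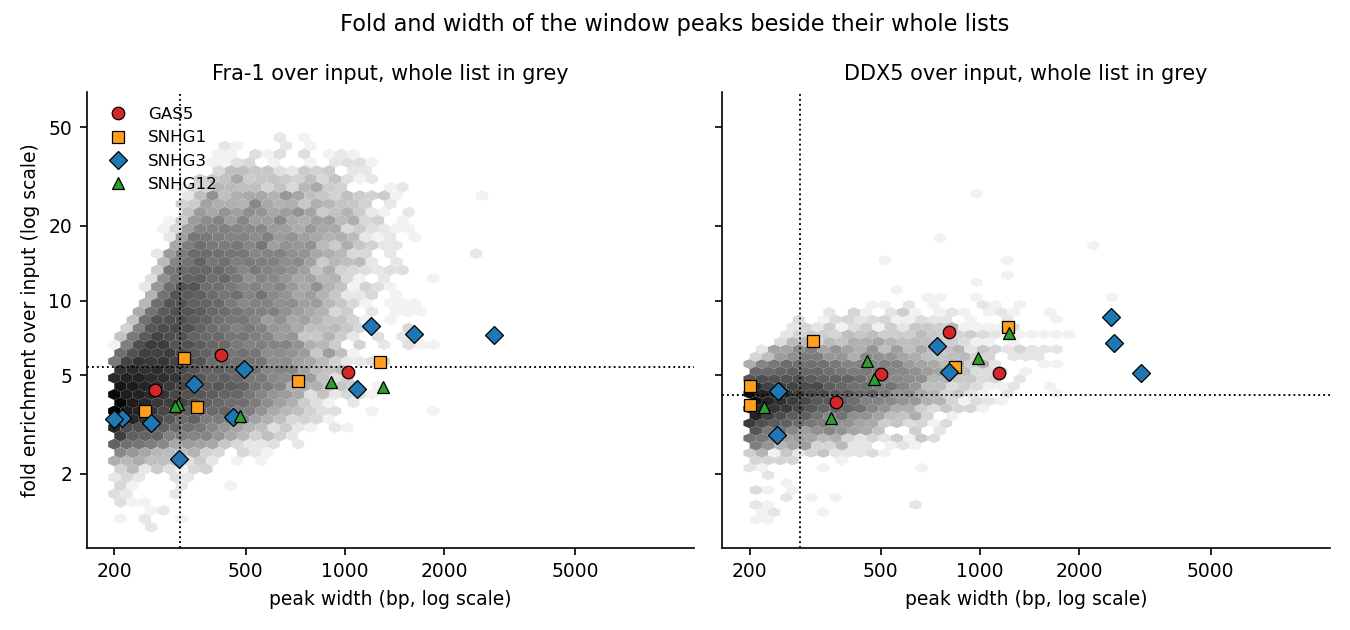
Fold over input (y axis, log scale) against peak width in bp (x axis, log scale) for the host gene peaks, coloured by window, over the whole Fra-1 and DDX5 lists in grey, with dotted lines at the medians of each list. The SNHG3 peaks of 2843 bp (Fra-1) and 3069 bp (DDX5) lie at the far right, and no host gene peak is above 7.92-fold for Fra-1 or 8.55-fold for DDX5.

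The series asked where Fra-1 and DDX5 bind together or apart. In the host gene windows 22 of 24 Fra-1 peaks overlapped a DDX5 peak over input (91.7%, with a lower bound of the exact binomial 95% interval of 73.0%), against 21.8% of the whole Fra-1 list. In the other direction 18 of 22 DDX5 peaks overlapped a Fra-1 peak (81.8%, exact binomial 95% interval 59.7% to 94.8%), against 61.8% of the whole DDX5 list. These intervals cover counting error only, since peaks of the same window share chromatin and both lists share the input library. Wide or crowded peaks meet a rule of 1 bp more easily, and the part of width and crowding in these shares was not tested. Joined where they overlapped, the peaks formed 22 sites, of which 16 held both antibodies, 2 held Fra-1 alone and 4 held DDX5 alone. The sites of a single antibody were narrow, 200 to 365 bp, and none exceeded 4.51-fold. By length, the shared part was 100% of the Fra-1 coverage at GAS5, 91.2% at SNHG12, 88.4% at SNHG3 and 82.4% at SNHG1, and 60.9%, 81.3%, 78.9% and 87.0% of the DDX5 coverage in the same windows.

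Summits fell close together at some sites, narrow and broad, and far apart at others. For the 18 DDX5 peaks with a Fra-1 partner, the nearest Fra-1 summit in that partner lay a median of 85.5 bp away (3 to 1433 bp), against 73 bp over the 6700 such DDX5 peaks of the list. Within 20 bp lay 5 of the 18, namely the strongest pair at SNHG3, the narrow pair there, the pair of the highest pileup and the 62623120 pair at SNHG1, and the 28906320 pair at SNHG12, against 1214 of the 6700 in the list. Within 100 bp lay 10 of the 18, against 4030 of the 6700. Since the partner was picked for overlapping, the distance is a description.

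Against the IgG library nothing in the windows was listed. None of the 24 Fra-1 peaks over input overlapped a Fra-1 peak over IgG, which allows a share of up to 12.5%, against 50.5% of the whole list. Of the 24, 8 had at least 5-fold over input, and again 0 of these were listed over IgG, against 80.6% of the Fra-1 peaks of at least 5-fold in the list. That share is not matched in fold. The 8 reached at most 7.92-fold, while 9028 of the 16775 list peaks of at least 5-fold had 8-fold or more. None of the 22 DDX5 peaks over input overlapped a DDX5 peak over IgG, which allows a share of up to 13.6%, against 0.508% of the whole DDX5 list. For DDX5 the background itself is near 0, so the count for the windows does not separate them from the rest. The limits at a count of 0 take the peaks as independent and cover counting error only.

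The closest Fra-1 peak over IgG lay 1.24 kb beyond the high edge of the SNHG12 window (chr1:28921238-28921491, 3.84-fold at an IgG level of 11.0), with another at 28928201 (6.79-fold at an IgG level of 5.4). The closest to the SNHG1 window lay at chr11:62649046-62649275 (4.29-fold), and the closest to the SNHG3 and GAS5 windows lay 55.3 and 142 kb away. Both peaks beside SNHG12 were outside the 4.98 kb where its peaks over input gathered.

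The absence of listed peaks over IgG was set against the pileups at these sites. In the lists over IgG the authors' pileups are the ChIP pileups multiplied by 0.884 for Fra-1 and 0.998 for DDX5, and the lowest −log10 p listed was 4.09 and 5.86. A peak of known pileup would have passed that evidence at any IgG level up to a limit that follows from the Poisson tail. At the SNHG1 site of the highest pileup that limit was 112 fragments for Fra-1 and 126 for DDX5, which is 4.2 times and 5.64 times the input level at the same depth. At the first SNHG3 peaks it was 27.6 for Fra-1 and 27.6 for DDX5, or 5.04 times and 4.89 times the input level, and at the leading DDX5 peak of SNHG12 it was 41.9, or 4.45 times. These limits hold only if listing followed that Poisson value, and listing may also depend on width. The shortest listed peak was 200 bp wide. The authors' caller and its cutoff are not known, so the limits rest on an assumption. They do not give the IgG level at these sites.

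Over all members the limit was 0.821 to 5.04 times the input level for Fra-1 (median 2.14) and 1.01 to 5.64 times for DDX5 (median 2.29). It exceeded the input level at 23 of 24 Fra-1 peaks and at all 22 DDX5 peaks, and it exceeded 4 times that level at 4 and 3 peaks. The exception was the weakest Fra-1 peak of SNHG3, at 28834243. Every member was already called over input, which largely fixes a limit above its input level. These counts thus restate the calls over input and say nothing about IgG at these sites. The limit was not worked out for the whole lists, so it does not set the windows apart from them. The IgG level itself is not in the lists at these sites. The limits are worked out from the pileups and the lowest −log10 p listed over IgG, and are not measurements. The cause of the absence of listed peaks over IgG was not tested.

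**Figure D4:**
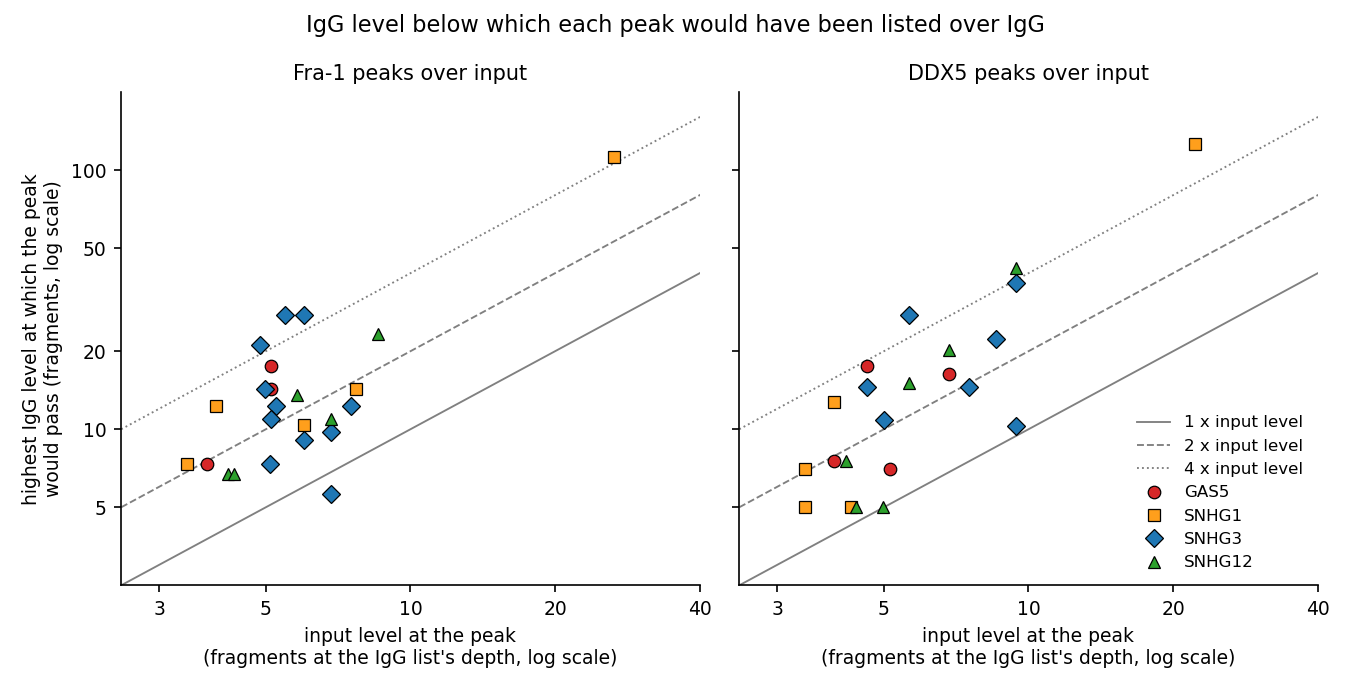
For each host gene peak over input, the highest IgG level at which it would still have reached the lowest −log10 p listed over IgG (y axis, fragments, log scale) against the input level at the peak at the same depth (x axis, log scale), coloured by window, with lines at 1, 2 and 4 times the input level. Of the points 23 of 24 for Fra-1 and all 22 for DDX5 lie above the 1 x line, and the SNHG1 site of the highest pileup, at 112 and 126 fragments, stands apart at the upper right. Since all peaks were already called over input, a place above the 1 x line is largely fixed in advance.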

How the data were processed

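Peak lists of Fra-1 and DDX5, each made by the authors against input and against IgG, were used as deposited. The submitters' processing notes name CASAVA 1.8, Bowtie 0.12.9, HOMER and hg19 without their roles; the peak caller is not given in the sources used here. Per the file headers, the deposited values are a pileup (a coverage signal) and a fold enrichment (a ratio). The authors' −log10 p-value and −log10 q-value columns have damaged headers and were recognised by their values. The lists hold no control level. It was computed by taking fold as pileup plus 1 over control level plus 1, and this formula is an assumption.

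A peak belonged to a window, or overlapped another peak, from 1 bp on. All peaks of the 4 windows are named or counted. Windows, members and comparisons were chosen with earlier results of these data known. With 1 library per antibody no test was made. Intervals are exact binomial (Clopper-Pearson), and a count of 0 was given a limit of 3 counts. Limits on the IgG level come from the Poisson upper tail. Other thresholds, window edges and overlap rules were tried. The overlap code was tested on simulated data. The work used Python 3.11.15 with numpy 2.4.6 and pandas 2.3.3; intervals came from scipy 1.17.1, figures from matplotlib 3.10.9. A list of other snoRNA host genes needs hg19 annotation and was not analysed here.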

Additional observations from a re-analysis of the deposited data

How the results depend on the processing

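Of 32 values recomputed under other thresholds, window edges and overlap rules, 23 stayed within 1.5 times of a count or within the interval of a share, and 9 did not. At 8-fold or more, 0 of 24 Fra-1 and 1 of 22 DDX5 peaks over input remained in the windows. The whole lists had 9028 of 30571 and 247 of 10836 there. At or above the list's median −log10 q, 9 Fra-1 peaks remained (18 DDX5 peaks, within 1.5 times). Windows widened by 10 kb held 2 Fra-1 peaks over IgG, both beside SNHG12. When peak centres had to lie within 100 bp, 37.5% of the Fra-1 peaks had a DDX5 partner and 40.9% of the DDX5 peaks a Fra-1 partner. With summits within 100 bp these were 41.7% and 45.5%. In the whole list, 4030 of the 10836 DDX5 peaks had an overlapping Fra-1 peak with a summit within 100 bp. Whole-list shares for the other stricter values are not given here. Of the 9 Fra-1 peaks at or above the median −log10 q, 100% had a DDX5 peak. Of the 18 DDX5 peaks at or above their list's median, 88.9% had a Fra-1 peak. A stricter threshold can only lower a count of peaks. Both shares were higher among the peaks at or above the median −log10 q, and the cause was not tested. The 0 peaks called again over IgG stayed at 0 under every rule of overlap and threshold tried. With no peak over IgG in the windows and no overlap at 1 bp, these rules could not give another value. Likewise, the counts of 0 peaks over IgG in the windows could not rise when summits had to lie inside or a threshold was raised. All these zeros are counted among the 23 and do not show robustness. Tiles begun 15 kb further along, an alternative chosen after seeing the data, gave 18.4%, 10.7%, 6.82% and 0.0495% of tiles with a peak (Fra-1 over input and IgG, DDX5 over input and IgG). Unknown depths limit what an unlisted site can show. No paired analysis was possible because each antibody has 1 library.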
